A study of Rattus norvegicus with 4 samples.

Results

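Rat mesenchymal stem cells from femurs were grown in osteogenic induction medium and exposed for 24 h to trichostatin A (TSA), to TSA with phenamil, or to vehicle. The comparison described here sets the 2 libraries that received TSA against the 2 that did not, which uses 4 of the 4 libraries of the series. The unexposed side holds young cells given vehicle (young control) and senescent cells given vehicle (senescent control). The exposed side holds senescent cells given TSA and senescent cells given TSA plus phenamil. Each condition is 1 library, all 4 are labelled as day 1 of the same batch, and no library had phenamil alone. The labels name phenamil as the added compound while the series' design text names benzyl ether, and the name in the labels is used here. The doses, and what made the cells senescent, are not stated in the labels or the design text.

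The 2 libraries of a side are therefore unlike conditions and not replicates of each other. The unexposed pair differs by cell age and the exposed pair by phenamil, and both exposed libraries are senescent while 1 of the 2 unexposed is young, so that exposure and age cannot be fully told apart. An exact permutation test of 2 libraries against 2 cannot give a two-sided p below 0.3333, so none is given for a single gene. RNA was extracted in bulk, where fewer cells of a type and less RNA per cell cannot be told apart.

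Trichostatin A inhibits the zinc-dependent histone deacetylases, enzymes that remove acetyl groups from histone tails and from other proteins such as tubulin. Inhibition raises histone acetylation within hours, and genes are known to respond to it in both directions. Known responders in many cell types include the linker histone gene H1f0, the CDK inhibitor gene Cdkn1a and the metallothionein genes. Phenamil is an amiloride derivative that blocks epithelial sodium channels and is known in osteogenic cells for raising Trib3, whose product promotes BMP signalling.

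Counts summed to between 9873894 and 11024227 per library over 34034 genes, and 12228 genes had at least 40 counts over the 4 libraries. A count of 3 was worth 0.271 to 0.303 CPM, the count per 1000000 counts after library sizes were scaled with edgeR's TMM factors. All 15 mesenchymal stromal markers in the table were detected, with a summed level of 8863 CPM for the young and 9241 for the senescent control, 9479 with TSA and 9897 with TSA plus phenamil. Vim, the intermediate filament gene that makes up most of that sum, was at 6034, 6478, 6983 and 7133 CPM in the same order. Without Vim the other 14 summed to 2828, 2763, 2496 and 2764 CPM, so the rising order of the sum came from Vim. Of the 15, 4 were apart higher, Vim among them, and 2 apart lower, Itgb1 (1652, 1566, 1292 and 1543 CPM) and Pdgfra (35.7, 37.7, 33.4 and 31.1 CPM). Of 16 leukocyte and macrophage markers, 5 were at 0 in every library and 15 had under 40 counts, among them Ptprc with 0, 0, 0 and 3 counts. Their summed level was 5.78 and 6.91 CPM in the unexposed and 11.6 and 11.3 CPM in the exposed libraries, of which Cd14 gave 5.15, 5.82, 8.58 and 7.92 CPM. The part of this difference in the results below was not tested.

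A gene is called apart here when both exposed libraries lay above both unexposed ones (apart higher) or below both (apart lower). Of the 12228 genes, 2116 were apart higher, which is 17.3%, and 2075 were apart lower, which is 17.0%. In either direction this was 34.3% of the genes. With the libraries in random order for each gene, the expected share equals the lowest two-sided permutation p given above. The observed share was close to it, so being apart does not by itself show a difference by exposure. The gap was mostly small. For 273 genes higher (2.23%) and 234 lower (1.91%), the exact 95% binomial interval of the ratio between the 2 nearest libraries of opposite sides excluded 1, and this interval covers counting error only. The nearest libraries stood at least 1.5-fold apart for 72 genes higher (0.589%) and 75 lower (0.613%), and at least 2-fold apart for 22 and 19. At the threshold itself, Stat3 was the gene with at least 100 counts that was apart by the least, at 252 and 222 CPM unexposed against 209 and 222 exposed, and Fbxo30 missed by the least, at 9.39 and 8.73 against 9.39 and 12.7.

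No gene passed edgeR's quasi-likelihood test at an adjusted p of 0.05 (0% of genes), and the lowest Benjamini-Hochberg adjusted p was 0.942. At an unadjusted p under 0.05 that fit held 312 genes higher and 285 lower, together 4.88% of the genes tested. DESeq2 also called 0 genes, with 160 and 136 at an unadjusted p under 0.05. The differences within a side were as wide as those across sides. Over 8046 genes with at least 400 counts, the log2 ratio of the senescent to the young control had an SD of 0.25 and that of TSA plus phenamil to TSA an SD of 0.28. The 4 ratios across sides had SDs of 0.33 (TSA to young), 0.24 (TSA to senescent), 0.24 (TSA plus phenamil to young) and 0.24 (TSA plus phenamil to senescent). What follows is therefore a description of these 4 libraries, and no gene below is stated as changed by exposure.

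The genes farthest apart on the higher side were led by genes of protein synthesis. Rpl32, a protein of the large ribosomal subunit, was at 101 CPM in the young and 107 CPM in the senescent control, and at 158 CPM with TSA and 153 CPM with TSA plus phenamil. Its nearest pair stood 1.42-fold apart (counting interval 1.32 to 1.54), and it had the lowest p of the edgeR quasi-likelihood fit, with a log2 difference of 0.58 (SE 0.115, adjusted p = 0.942). Of the 15 genes ranked first by their counting interval, 7 encode ribosomal proteins: Rpl32, Rps25, Rpl4, Rpl36a, Rpl35, Rpl17 and Rps24. Rps25, a small-subunit protein, was at 340.0 and 391 CPM unexposed and at 501 and 506 CPM exposed. Naca, a subunit of the complex that binds nascent chains at the ribosome, was at 301 and 316 CPM against 402 and 409.7 CPM. In Rpl32, Rps25 and Naca the 2 exposed values lay close together. That they lay above the higher unexposed value follows from the ranking.

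The other genes of that group came from several classes. Med11, a subunit of the Mediator complex that links transcription factors to RNA polymerase II, was at 22.7 and 22.6 CPM unexposed and at 35.6 and 33.8 CPM exposed, a nearest-pair ratio of 1.49 (1.26 to 1.76). Pdcd5, named for programmed cell death, was at 136 and 174 against 227 and 221 CPM. Trim8, a ubiquitin ligase gene, was at 19.7 and 15.5 against 28.0 and 28.1 CPM. The unexposed values of Pdcd5 and Trim8 differed from each other, in opposite directions by age. Hoxb4, a homeobox transcription factor gene, was at 1.44 and 1.55 against 3.43 and 3.34 CPM, with a nearest-pair ratio of 2.16 and an interval of 1.18 to 4.11. Trnd, listed under a transfer RNA symbol, was at 22.3 and 17.9 against 31.9 and 32.05 CPM, and the long noncoding RNA LOC102549795 at 3.61 and 2.46 against 6.36 and 7.25 CPM. The small nucleolar RNA LOC120100461 was at 1.90 and 2.73 against 5.55 and 5.91 CPM. It lies within Rps16, a ribosomal protein gene that was itself not apart (2396, 2419, 2550.4 and 2374 CPM), and reads of the snoRNA and of Rps16 cannot be told apart without the details of the counting.

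On the lower side, Snx31, a sorting nexin gene, came first. It was at 13.3 CPM in the young and 12.6 CPM in the senescent control, and at 5.65 CPM with TSA and 5.91 CPM with TSA plus phenamil, so that the nearest pair stood 2.14-fold apart (1.57 to 2.93). In the edgeR quasi-likelihood fit its log2 difference was -1.16 (SE 0.238, adjusted p = 0.942). Rn45s, the ribosomal RNA precursor, was at 8.58 and 8.27 CPM unexposed and at 3.84 and 2.96 CPM exposed, a nearest-pair ratio of 2.16 (1.46 to 3.24). This transcript lay lower in the same libraries in which ribosomal protein messages lay higher. Its few reads in a library primed at poly(A) tails do not measure the amount of ribosomal RNA.

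Kcnq5, a voltage-gated potassium channel gene, was at 41.4 and 39.6 CPM unexposed and at 27.7 and 25.2 CPM exposed, with the nearest pair 1.43-fold apart (1.23 to 1.67). H6pd, which makes NADPH in the endoplasmic reticulum, was at 40.2 and 38.3 against 24.8 and 27.4 CPM. Cyp2u1, a cytochrome P450 gene, was at 19.4 and 23.7 against 12.8 and 11.9 CPM. In Kcnq5 and H6pd the exposed values lay farther from each other than the unexposed values did. In Cyp2u1 the unexposed values lay farther from each other. Tpm4, a tropomyosin of the actin cytoskeleton, was at 159.8 and 148 against 116 and 116 CPM. Gnl3l, a nucleolar GTPase gene, was at 77.6 and 71.4 against 54.3 and 47.3 CPM. Cavin1, a coat protein of caveolae, was at 6.41 and 6.18 against 2.63 and 3.43 CPM, and Ro60, which binds small noncoding RNAs, at 4.06 and 3.27 against 1.21 and 1.24 CPM. Ro60, Dip2b, Pask and the small nucleolar RNA LOC120103252 had under 10 CPM in every library, and Lrp11, Zfp532 and Trnae-uuc_3 completed the 15.

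**Figure D1:**
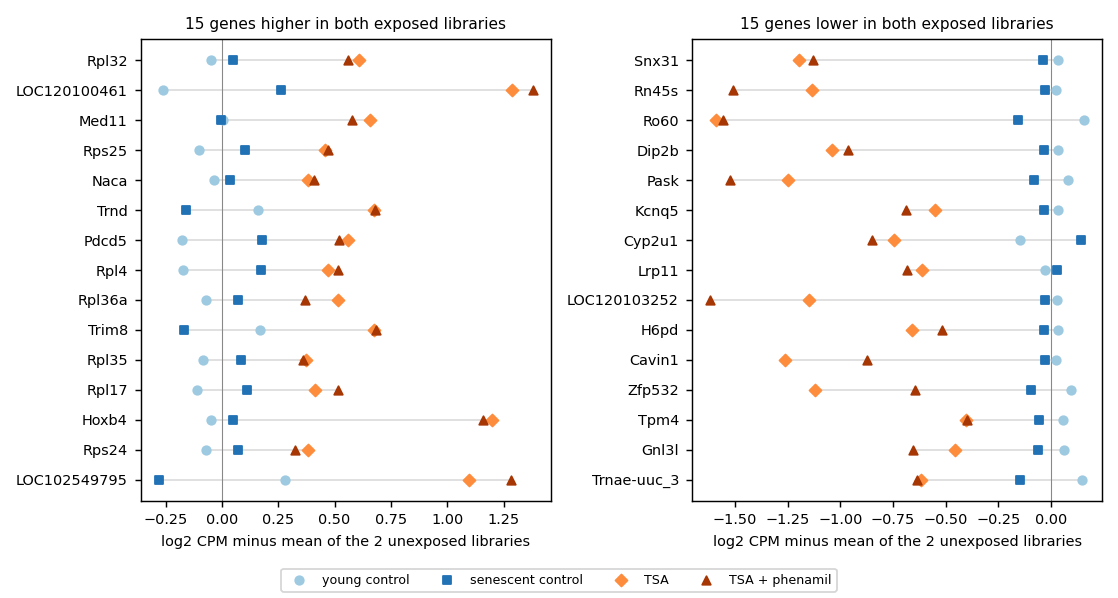
The 15 genes apart higher and the 15 apart lower that ranked first by the counting interval of their nearest pair; the horizontal axis is log2 CPM minus the mean of the 2 unexposed libraries and each mark is 1 library. Both unexposed marks sit near 0 and both exposed marks on 1 side, with the exposed values of Tpm4 at 116 and 116 CPM against 159.8 and 148.

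Ribosomal protein genes were the list with the most members apart higher. Ribosomal proteins are made in fixed proportion to one another, and their messages belong to the TOP class, which starts with a C followed by a run of pyrimidines that links their translation to growth signals. All 79 ribosomal protein genes listed passed the count minimum. Of them 47 were apart higher (59.5%, against 17.3% of all genes), 2 were apart lower (2.53%, against 17.0%) and 30 were not apart. The counting interval of the nearest pair excluded 1 for 37 of the 47 and for both lower genes, Rpl36 and Rplp1. Highly counted genes have narrower intervals, so the share that passes on the interval is read against genes as deep: of 93 other genes with at least the median total count of the ribosomal protein genes, 23 were apart higher (24.7%) and 21 lower (22.6%), and 18 and 15 passed on the interval.

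The median log2 difference of the 79 genes was 0.17, with 76 above 0 and 3 below, beside a median of -0.0005 over all genes. Ribosomal protein genes took 7.63% of all counts in young cells, 8.08% in untreated senescent cells, 8.99% with TSA and 8.22% with TSA plus phenamil. The libraries of a side did not agree in level. Set against the young control, 77 of 79 members were higher with TSA (median log2 ratio 0.27) and 66 with TSA plus phenamil (0.18), and 72 were higher in the senescent control (0.12). Set against the senescent control, 76 were higher with TSA (0.13) and 48 with TSA plus phenamil (0.05). These comparisons share their control libraries. Only 15 of the 79 were higher with TSA plus phenamil than with TSA, so the order of the libraries by the median member was young, senescent, TSA plus phenamil and TSA. The count of 47 is set by the narrowest of these gaps: without the TSA plus phenamil library 76 members were apart higher and 2 lower, and without the TSA library 47 were apart higher and 12 lower.

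The annotated starts of 5 of these genes are shown with the tract in capitals, 30 bases before to 15 from the start, to show what TOP messages have at their first base and that the tract is present in genes of every class. Rpl31, Rpl19 and Rpl35 were apart higher, Rpl37a was not apart and Rplp1 was apart lower. Rpl10 and Rpl37a, both not apart, had tracts as long as that of Rpl31. Rpl28, also not apart, had one as long as that of Rpl19. These are single picked genes, and no link between the tract and the order of the libraries is read from them. The sequences are from RefSeq on GRCr8, which is a later build than the one used for counting.
Rpl31 (chr9:49143081-49143125, plus strand): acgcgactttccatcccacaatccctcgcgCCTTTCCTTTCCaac
Rpl19 (chr10:83519034-83519078, plus strand): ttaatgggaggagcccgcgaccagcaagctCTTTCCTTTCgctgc
Rpl35 (chr3:43165907-43165951, minus strand): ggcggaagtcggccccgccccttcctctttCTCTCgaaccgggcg
Rpl37a (chr9:81748061-81748105, plus strand): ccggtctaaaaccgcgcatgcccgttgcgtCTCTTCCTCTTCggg
Rplp1 (chr8:71290858-71290902, minus strand): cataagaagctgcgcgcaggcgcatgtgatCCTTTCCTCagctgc
These 5 were picked after their values were seen. Rpl31 was at 801 and 901 CPM unexposed and at 1119.7 and 1054 CPM exposed, Rpl19 at 1019 and 1091 against 1375 and 1286 CPM, and Rpl35 at 1319 and 1484 against 1814 and 1797 CPM. Rpl37a was at 3376 and 3639 against 3647 and 3638 CPM. Rplp1, an acidic protein of the ribosomal stalk, was at 956 and 1037 CPM unexposed and at 913 and 889 CPM exposed, a nearest-pair ratio of 1.05 (1.02 to 1.08). A tract of at least 5 pyrimidines beginning with C stood at the annotated start of 24 of the 63 ribosomal protein genes with a promoter sequence (38.1%) and of 327 of 9856 genes compared (3.32%). Only 63 of the 79 (79.7%) had a promoter sequence, under the 80% needed, so a comparison of members with and without the tract is void and none is made. Among other genes with the tract, 55 of 303 were apart higher (18.2%) and 44 lower (14.5%), near the shares of all genes.

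A list of genes that work with the ribosome was added after values were seen. It holds Naca, already named above, so its share is no separate support for the ribosomal protein result. Of 29 translation factors and other TOP messages, 14 were apart higher (48.3%, against 17.3% of all genes) and 2 lower (6.90%, against 17.0%). Their median log2 difference was 0.09. Besides Naca, Nop58, a core protein of the particles that modify ribosomal RNA, was at 248 and 245 CPM unexposed and 305 and 303 CPM exposed. Eef1b2, which reloads the elongation factor that delivers transfer RNA, was at 859 and 979 against 1123 and 1085 CPM. The 2 members apart lower, Nap1l1 and Eef1g, differed little, with Nap1l1 at 616 and 619 against 575 and 584 CPM. Many ribosomal protein and translation genes have processed pseudogenes, and how reads shared with them were counted is not given in the sources used here.

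**Figure D2:**
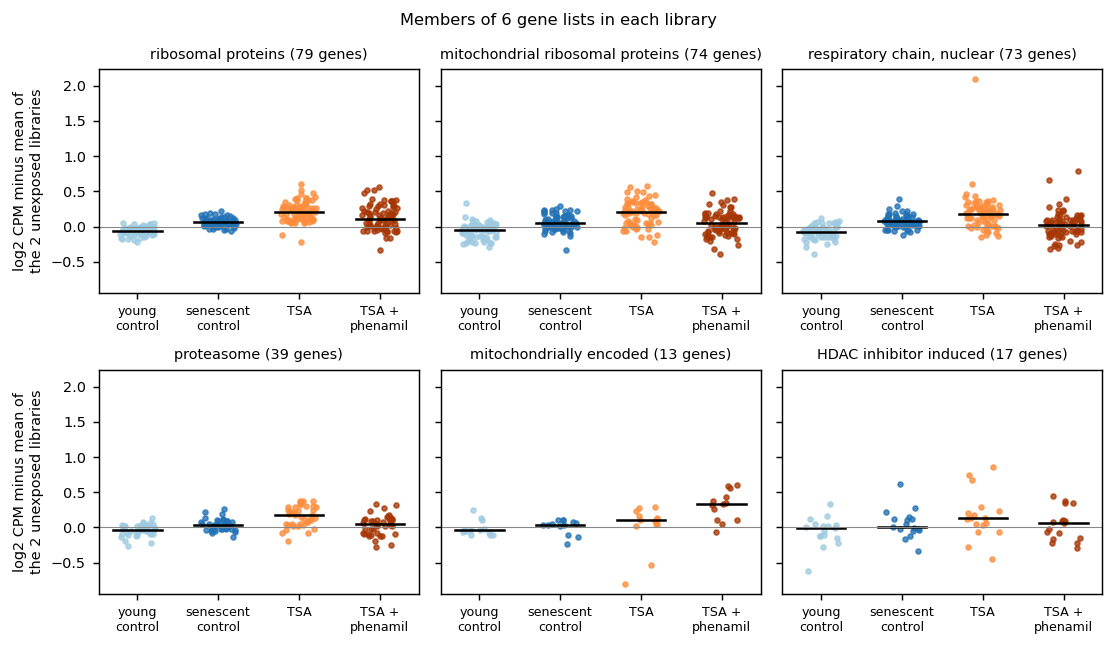
Each point is 1 gene of the named list in 1 library, as log2 CPM minus the mean of the 2 unexposed libraries, and the black line is the median. For ribosomal protein genes the medians were -0.06, 0.06, 0.21 and 0.11 from the young control to TSA plus phenamil, whereas the mitochondrially encoded genes were highest with TSA plus phenamil.

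The genes of mitochondrial respiration are carried by both the nuclear and the mitochondrial genome. Of the 13 protein genes of the mitochondrial genome, 8 were apart higher (61.5%) and 0 lower, with a median log2 difference of 0.22. Against the senescent control, 8 of the 13 were higher with TSA (median log2 ratio 0.02) and 12 with TSA plus phenamil (0.29). Against the young control, 11 were higher with TSA (0.15), 11 with TSA plus phenamil (0.37) and 10 in the senescent control (0.08). ND3, a subunit of complex I, was at 4472 and 5223 CPM unexposed and at 5872 and 6154 CPM exposed. ND4L, also of complex I, was at 467 and 504 against 595 and 729 CPM. For ND4 the values were 9439 and 7891 against 10181 and 13109 CPM. These transcripts took 5.47% of counts in young cells, 5.66% in untreated senescent cells, 6.02% with TSA and 6.85% with TSA plus phenamil, an order of the exposed libraries opposite to that of the ribosomal protein genes. They come from shared precursor transcripts, so the 13 are not separate observations.

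Of 73 nuclear genes of the respiratory chain, 21 were apart higher (28.8%) and 5 lower (6.85%), with a median of 0.09. Ndufa5, a complex I subunit, was at 206 and 223 CPM unexposed and at 271 and 280.4 CPM exposed, and Sdhd, which anchors complex II in the membrane, at 38.4 and 40.6 against 50.3 and 49.3 CPM. The 74 genes for mitochondrial ribosomal proteins had 21 members apart higher (28.4%) and 2 lower (2.703%), with a median of 0.11. Mrpl55 was at 49.2 and 50.1 against 69.9 and 61.7 CPM. Both lists lay highest with TSA. Of 73 respiratory chain genes, 63 were above the young control with TSA, 49 with TSA plus phenamil and 62 in the senescent control. Against the senescent control, 53 were higher with TSA and 26 with TSA plus phenamil. Of 74 mitochondrial ribosomal genes, 64, 50 and 54 were above the young control in the same order. Against the senescent control, 55 of them were higher with TSA and 32 with TSA plus phenamil.

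Protein breakdown and folding gave smaller counts. Of 39 proteasome subunit genes, 11 were apart higher (28.2%) and 2 lower (5.13%), with a median of 0.10. Against the senescent control, 31 of the 39 were higher with TSA and 19 with TSA plus phenamil. Only 5 were higher with TSA plus phenamil than with TSA. Psma4, of the proteasome's core ring, was at 239.9 and 262 CPM unexposed and at 324 and 295 CPM exposed, and Psmb10, an inducible catalytic subunit, at 24.2 and 24.3 against 30.3 and 30.2 CPM. Psmd6, of the regulatory lid, lay on the other side at 204 and 197 against 176 and 165 CPM. Of 25 chaperone genes, 8 were apart higher (32%) and 2 lower (8%). Hspe1, the mitochondrial co-chaperonin gene, was at 207 and 267 against 313 and 291 CPM, while Hspa1a, the stress-induced HSP70 gene, was at 25.8 and 23.0 against 14.1 and 18.0 CPM, with the nearest pair 1.28-fold apart (1.05 to 1.55). The chaperone list thus held members on both sides. Of 28 genes of the integrated stress and unfolded protein response, 6 were apart higher (21.4%) and 7 lower (25.0%), against 17.3% and 17.0% of all genes. Hyou1, a chaperone of the endoplasmic reticulum, was at 59.4 and 58.8 against 70.4 and 71.8 CPM.

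Of 32 antioxidant genes, many of them targets of NRF2, 8 were apart higher (25.0%) and 3 lower (9.38%), with a median of 0.10. The shares over all genes were 17.3% and 17.0%. Sod1, the cytosolic superoxide dismutase, was at 279 and 307 CPM unexposed and at 360.4 and 339.7 CPM exposed. The ferritin gene Fth1 was at 1214 and 1229 against 1349 and 1288 CPM. Of 18 interferon and RNA sensing genes, 5 were apart higher (27.8%, against 17.3% of all genes) and 0 lower (against 17.0%). They were led by Eif2ak2, the RNA-activated kinase that halts translation, at 21.5 and 20.6 against 28.6 and 25.8 CPM. The counting interval excluded 1 for 3 of the 8 antioxidant genes and for 1 of the 5 interferon genes. Among all genes apart higher it did so for 273 of 2116.

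**Figure D3:**
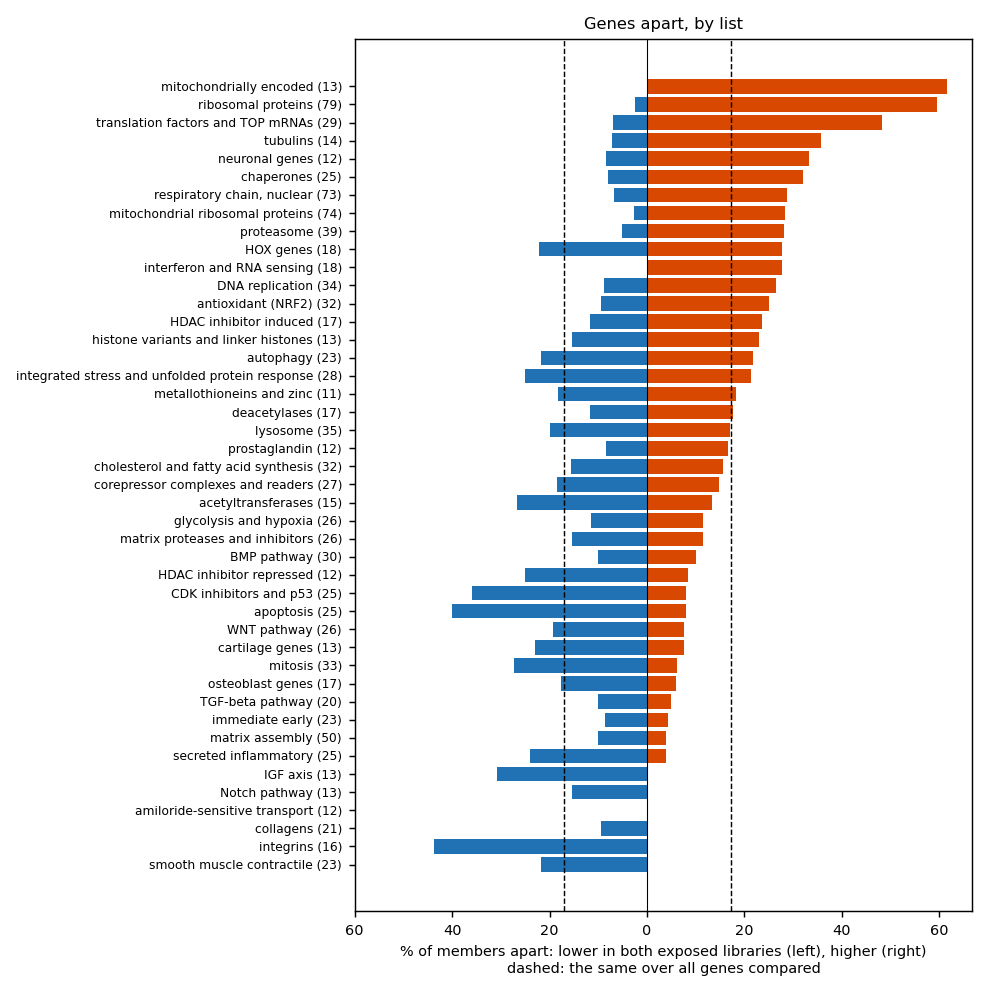
Share of each list's members that were apart lower (left, blue) or higher (right, orange), for lists with at least 10 genes compared, with the number of genes in brackets; the dashed lines mark the shares over all genes, 17.0% and 17.3%. Ribosomal protein and mitochondrially encoded genes reach 59.5% and 61.5% on the higher side, and integrins 43.8% on the lower side.

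Genes known to respond to deacetylase inhibition did not stand far from the background. Of 17 genes listed as induced, 4 were apart higher (23.5%) and 2 lower (11.8%). The median log2 difference was 0.05 (below 0 without the young control). The counting interval excluded 1 for none of these 6 genes apart. Among all genes it did so for 273 of the 2116 apart higher and 234 of the 2075 apart lower. H1f0 was at 118 CPM in the young and 126 CPM in the senescent control and at 138 CPM with TSA and 129.5 CPM with TSA plus phenamil, a nearest-pair ratio of 1.03 (0.954 to 1.11). Cdkn1a lay on the other side, at 237 and 235 CPM unexposed and 226 and 203 CPM exposed. Mt1, a zinc-binding metallothionein gene, was at 18.6 and 15.6 against 31.0 and 22.1 CPM, a nearest-pair ratio of 1.19 (0.982 to 1.44). Mt2A was at 24.4 and 23.5 against 39.98 and 22.9 CPM, so that it was high with TSA alone and not apart. Of 12 genes listed as repressed, 1 was apart higher (8.33%) and 3 lower (25.0%), with a median of -0.03 that was above 0 without the TSA plus phenamil library. Tyms, the thymidylate synthase gene, was the higher one, at 18.1 and 17.6 against 28.1 and 21.3 CPM.

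The acetylation machinery itself was near the background as well. Of 17 deacetylase genes, 3 were apart higher (17.6%) and 2 lower (11.8%), and none had an interval that excluded 1. Hdac1, a main nuclear target of the inhibitor, was at 87.9 and 99.9 CPM unexposed and 112 and 93.8 CPM exposed and was not apart. Hdac6, which deacetylates tubulin, was at 12.6 and 14.5 against 16.6 and 14.6 CPM. Of 15 acetyltransferase genes, 2 were apart higher (13.3%) and 4 lower (26.7%), among them Kat7 at 55.7 and 54.8 against 47.3 and 48.0 CPM. Of 27 genes of corepressor complexes and acetyl-lysine readers, 4 were apart higher (14.8%) and 5 lower (18.5%). Rbbp7, a histone-binding subunit of several such complexes, was at 190.2 and 192 against 210.4 and 214 CPM. Of 13 genes for histone variants and linker histones, 3 were apart higher (23.1%) and 2 lower (15.4%), and the linker histone gene H1f4 was at 80.4 and 72.1 against 60.0 and 62.9 CPM, opposite to H1f0.

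**Figure D4:**
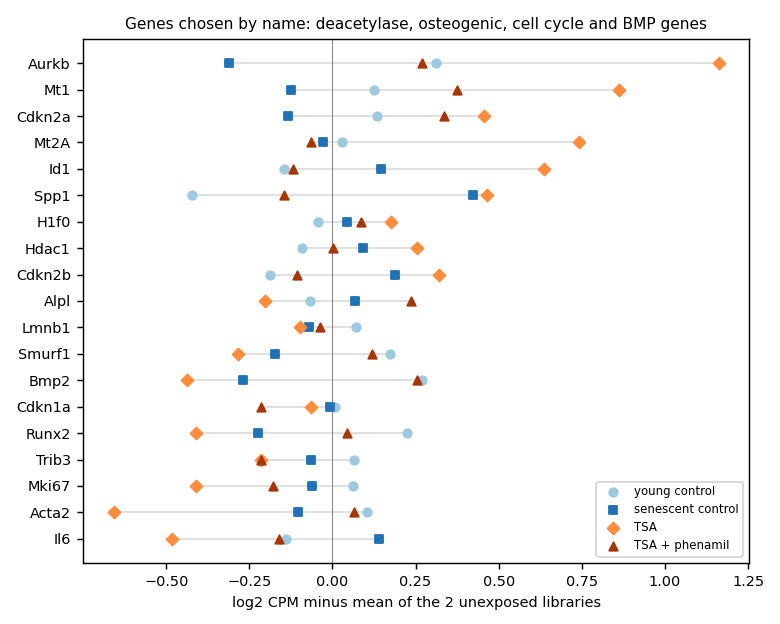
Genes chosen by name for their role in the treatments or in the cells, ordered by the log2 difference between sides; the horizontal axis is log2 CPM minus the mean of the 2 unexposed libraries and each mark is 1 library. In most rows the marks of the sides are mixed, as for Spp1 (2337 and 4201 CPM unexposed, 4323 and 2832 exposed), and Trib3 has both exposed marks at 159 CPM.

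Lists with more members apart lower than higher included cell adhesion, cell death and cell cycle genes. Of 16 integrin genes, 7 were apart lower (43.8%) and 0 higher, with a median log2 difference of -0.21. The gaps were narrow, and the interval excluded 1 for none of the 7, beside 234 of the 2075 genes apart lower among all genes. Itgb1, the beta subunit shared by many integrins, was at 1652 and 1566 CPM unexposed and at 1292 and 1543 CPM exposed, and Itga6, a laminin receptor subunit, at 105 and 114 against 97.6 and 98.3 CPM. Of 23 smooth muscle contractile genes, 5 were apart lower (21.7%, near the 17.0% of all genes) and 0 higher (17.3% of all genes). Their median log2 difference of -0.07 was above 0 without the young control or without TSA. Tagln, an actin-binding protein, was at 2993 and 3221 against 2919 and 2929.6 CPM, with the nearest pair 1.02-fold apart (1.01 to 1.04). Acta2, the smooth muscle actin gene, was at 5212 and 4515 against 3075 and 5069.8 CPM, low with TSA alone, and was not apart.

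Of 25 apoptosis genes, 10 were apart lower (40%) and 2 higher (8%), with a median of -0.13. The 10 included both inhibitors and promoters of cell death: Xiap, a caspase inhibitor, was at 66.1 and 66.4 CPM unexposed and at 57.8 and 56.4 CPM exposed, and the death receptor gene Fas was at 42.4 and 49.2 against 39.2 and 37.5 CPM. Of 25 CDK inhibitor and p53 pathway genes, 9 were apart lower (36.0%) and 2 higher (8%), with a median of -0.09. Lmna, the nuclear lamina gene, was at 678 and 658 against 584 and 586 CPM, a nearest-pair ratio of 1.12 (1.08 to 1.16). Cdkn2a, an effector of senescence, lay higher at 6.14 and 5.09 against 7.67 and 7.06 CPM, with an interval of 0.816 to 1.62. The senescence-linked genes Cdkn2b and Lmnb1 were not apart, with Cdkn2b at 99.9 and 129 against 142 and 106 CPM. The interval excluded 1 for 1 of the 10 apoptosis genes and 1 of the 9 CDK inhibitor and p53 genes. Among all genes apart lower it did so for 234 of 2075.

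Of 33 mitosis genes, 9 were apart lower (27.3%) and 2 higher (6.06%), with a median of -0.05. Mki67, a proliferation marker, was at 38.6 and 35.5 CPM unexposed and at 27.9 and 32.7 CPM exposed, and the mitotic kinase gene Plk1 at 42.5 and 39.7 against 29.3 and 36.9 CPM. Aurkb, another mitotic kinase gene, was at 5.60 and 3.64 against 10.1 and 5.44 CPM, high with TSA alone, and was not apart. Of 34 DNA replication genes the larger number lay on the other side, with 9 apart higher (26.5%) and 3 lower (8.82%). Mcm5, of the replicative helicase, was at 7.86 and 7.09 against 10.7 and 10.1 CPM. The interval excluded 1 for none of the mitosis or replication genes apart. Among all genes it did so for 273 of the 2116 apart higher and 234 of the 2075 apart lower.

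Growth factor, matrix and secreted lists held more members apart lower than higher. The collagen and matrix assembly lists had a smaller share apart lower than the 17.0% of all genes. Of 13 genes of the IGF axis, 4 were apart lower (30.8%) and 0 higher, and the receptor gene Igf1r was at 371 and 343 CPM unexposed and at 282 and 309 CPM exposed. Of 21 collagen genes, 2 were apart lower (9.52%) and 0 higher, with a median of -0.16 that was above 0 without the young control or without TSA. Col11a1, a fibrillar collagen of cartilage, was at 2831 and 2394 against 2186 and 2142 CPM. Of 50 matrix assembly genes, 5 were apart lower (10%) and 2 higher (4%). Of 25 secreted inflammatory genes, 6 were apart lower (24.0%) and 1 higher (4%). Their median log2 difference was 0.01, with 14 above 0 and 11 below. Its sign changed under total-count scaling and with any 1 library left out. Vegfa, the main vascular growth factor gene, was at 48.8 and 47.9 against 33.2 and 40.5 CPM. Il6 was at 3.97 and 4.82 against 3.13 and 3.91 CPM, with an interval that spanned 1.

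For the BMP pathway, which drives osteoblast formation, 3 of 30 genes were apart higher (10%) and 3 lower (10%). The ligand gene Bmp4 was at 207 CPM in the young and 278 CPM in the senescent control and at 307 CPM with TSA and 352 CPM with TSA plus phenamil, with the nearest pair 1.11-fold apart (1.05 to 1.16). The values of Bmp2, another ligand gene, were 37.6 and 25.9 against 23.0 and 37.2 CPM, not apart. Trib3 lay lower at 192 and 176 against 159 and 159 CPM (nearest pair 1.11-fold apart, 1.04 to 1.19), and the target gene Id1 was at 72.0 and 88.1 against 124 and 73.3 CPM. Smurf1, a ubiquitin ligase that targets BMP Smads, was at 29.1 and 22.9 against 21.2 and 28.0 CPM. For Bmp2 and Smurf1 the TSA plus phenamil value was close to that of the young control and the TSA value to that of the senescent control.

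Of 17 osteoblast genes, 1 was apart higher (5.88%) and 3 lower (17.6%). Omd, an osteoblast proteoglycan, was at 44.8 and 47.6 CPM unexposed and at 61.9 and 58.7 CPM exposed, a nearest-pair ratio of 1.23 (1.10 to 1.39). Its relative Ogn was at 677 and 712 against 530.5 and 623 CPM, and Tnfrsf11b, the decoy receptor that restrains osteoclasts, at 299 and 279 against 212 and 258 CPM. Omd and Ogn both overlap Cenpp in the annotation. Runx2, the master regulator of the lineage, was at 26.8 and 19.6 against 17.3 and 23.7 CPM, the alkaline phosphatase gene Alpl at 17.5 and 19.3 against 16.0 and 21.7 CPM, and the osteopontin gene Spp1 at 2337 and 4201 against 4323 and 2832 CPM. None of these 3 was apart. Of the 12 genes of amiloride-sensitive transport, 0 were apart in either direction.

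Gene length differed between the genes on either side. A span was matched for 12007 of the genes (98.2%) from RefSeq gene models on GRCr8. The median span from the first to the last annotated base was 18.5 kb for genes apart higher, 29.4 kb for genes apart lower and 24.0 kb for genes not apart, and without ribosomal protein genes it was 19.3 kb and 29.4 kb for the genes apart. In the shortest of 5 equal groups 21.98% of genes were apart higher and 14.1% lower, and in the longest 12.4% and 20.98%. Among genes with at least 1000 counts and without ribosomal protein genes, the shortest group had 23.0% higher and 12.8% lower, and the longest 11.2% and 24.3%.

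The pattern with length was not the same in both exposed libraries. Across 7997 genes, which are not independent replicates, Spearman's rho of the log2 ratio with span was -0.27 for TSA against the young control and -0.21 for TSA against the senescent control. It was -0.11 and 0.05 for TSA plus phenamil against the same controls, 0.24 for TSA plus phenamil against TSA, and -0.15 for the senescent against the young control. Longer genes were thus lowest with TSA, and the values with TSA plus phenamil lay near those of the senescent control. The ribosomal protein, mitochondrial ribosomal, respiratory chain and proteasome lists were also highest with TSA, and the part of gene length or RNA quality in these lists was not tested.

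**Figure D5:**
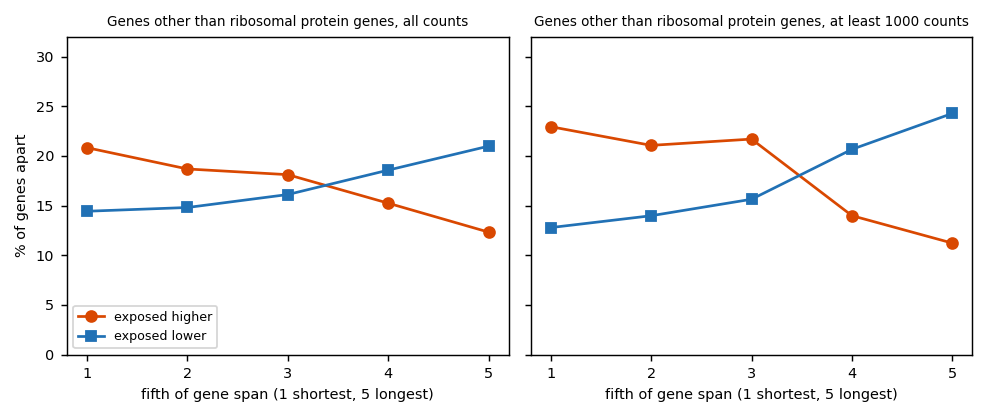
Share of genes apart higher (orange) or lower (blue) in 5 equal groups by gene span, for genes other than ribosomal protein genes (left) and for those with at least 1000 counts (right). In the right panel the share apart higher was 23.0% in the shortest group and 11.2% in the longest, and the share apart lower was 12.8% and 24.3%.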

How the data were processed

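Libraries were made with a QuantSeq 3' FWD kit from TRIzol-extracted RNA and read as single 100-base reads, per the labels' protocols. Per the submitters' processing notes, the build was mRatBN7.2 and the tools included HTSeq 2.0.2 and STAR 2.7.10b. The deposited table of raw counts per gene was analysed, and the deposited log2 values, which equal log2 of count over a size factor plus 1 to within 0.00055, served as an alternative. How reads shared between genes were counted is not stated in the sources at hand.

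Genes that reached 40 counts summed over all 4 libraries were kept, and TMM factors were taken from edgeR 4.0.16 (R 4.3.3). The log2 difference is the mean of the 2 exposed minus the mean of the 2 unexposed log2 CPM, with a prior count of 0.5. The nearest-pair interval is an exact conditional binomial (Clopper-Pearson) 95% interval. A quasi-likelihood fit used side as its only term (residual df 2), so its p-values measure a difference against the spread between unlike libraries. DESeq2 1.42.0, other scalings, filters and each library left out were alternatives, and scripts were tested on simulated data. Where several values follow each other, they are in the order young control, senescent control, TSA, TSA plus phenamil.

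Of genes apart with at least 100 counts, the 15 in each direction whose counting interval lay farthest from 1 were named, with up to 3 members per list and direction by the same ranking, the 10 genes of lowest p, 19 genes chosen by name, and the genes nearest the threshold. Outside that rule, Rps16, Eef1g, Rpl10, Rpl19, Rpl28, Rpl31 and Rpl37a and the cell type markers in the fourth paragraph were named after their values were seen. Members, lists and rules were chosen with earlier results of these data known. Promoter and gene tables were matched by gene ID.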

Additional observations from a re-analysis of the deposited data

How the results depend on the processing

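No paired analysis was possible because each condition has 1 library. Leaving out 1 library left the number of genes called by edgeR's quasi-likelihood test at 0 to 1, the single call being Aqp1 without the TSA library (log2 difference -0.94, adjusted p = 0.0133, against 0.942 as the lowest with all libraries); a side with 1 library is then assumed to vary like the other. Without a filter the lowest adjusted p was 0.0553 and 0 genes were called. With 1 library fewer the rule compares fewer values, and 3777 to 4391 genes were apart higher and 3856 to 4409 lower. Ribosomal protein genes apart higher ranged from 47 to 76 and lower from 2 to 12 (12 without the TSA library); their median log2 difference ranged from 0.10 to 0.21. Under total-count scaling 1816 genes were apart higher and 2402 lower, with a median over all genes of -0.02, and 40 ribosomal protein genes were higher. Of 49 list medians, 1 changed sign with DESeq2 size factors, 4 with total counts, and 7 to 15 when a library was left out (15 without TSA, 11 without the young control). Medians of ribosomal protein, mitochondrial, proteasome, integrin, apoptosis and mitosis lists kept their sign throughout. Genes with under 10 CPM are limited by counting error.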
